A study of Mus musculus with 4 samples.

Results

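The Wnt pathway genes described here are all genes on the array whose symbol is Wnt, Fzd, Sfrp, Dkk, Dvl or Axin followed by a digit, together with Frzb, Lrp5, Lrp6, Ctnnb1, Gsk3b, Apc, Lef1, Tcf7, Tcf7l2, Csnk1e, Csnk2a1, Btrc and Porcn. The rule uses symbols and no measured value, but it was drawn up with earlier results of these data known. The rule found 43 genes, measured by 56 probe sets, of 8236 genes with a probe set of 1 symbol. Gsk3b, Tcf7 and Porcn had 0 probe sets with 1 symbol, so these genes are not analysed here. A probe set is a group of short probes on the array that is read as 1 signal for 1 transcript.

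The 4 samples were clones grown from c17.2, a mouse neural stem cell line made immortal with an oncogene, and all were dividing when collected. Clone 42 and clone 48 carry a stable transgene for Nurr1, a nuclear receptor with no known ligand that midbrain dopaminergic neurons need. The clones puroB and puroD carry the puromycin resistance vector without Nurr1. Clone 42 had been matched with puroB (the first pair), and clone 48 with puroD (the second pair), by similar proliferation rates. All 4 sample descriptions give this pairing, while the design text writes the number 42 in both pairs and c48 in brackets in the second. RNA of each clone was measured on 1 Affymetrix mouse array, so a group is 2 clones, and the spread between clones of 1 group holds both clonal and technical differences. The sources used here do not name the promoter that drives the Nurr1 transgene. Below, 4 signals written as a pair against a pair are those of clone 42 and clone 48 against puroB and puroD, in that order, in linear units as deposited.

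Wnt ligands are secreted lipid-modified proteins that bind a Frizzled receptor together with the co-receptors Lrp5 or Lrp6. Without a ligand, a complex of Axin, Apc and kinases marks beta-catenin, the product of Ctnnb1, for destruction through Btrc. With a ligand, Dishevelled (Dvl) proteins draw Axin to the membrane, beta-catenin accumulates, and it acts in the nucleus with Lef1 or Tcf factors. In the nervous system the pathway is known for patterning of the midbrain and cerebellum, for keeping progenitors dividing and for the birth of midbrain dopaminergic neurons.

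Promoter sequences show what the motif search below could read. RefSeq windows of assembly GRCm38.p6, 300 bases long with 250 before the start site, were found for 27 of the 43 genes, as 38 windows. The parts before the start site are printed for Fzd7 and Tcf7l2, which had the most negative fitted differences among the probe sets lower in both pairs, and for Wnt5b, which carries 1 of the motifs. Capitals mark the TCF/LEF core CTTTGAT, the sequence bound by Lef1 and Tcf factors, on either strand. The Fzd7 part lies at chr1:59481897-59482146 on the plus strand. The Tcf7l2 part, from 1 of its windows, lies at chr19:55741560-55741809 on the plus strand. The Wnt5b part lies at chr6:119449387-119449636 on the minus strand.
Fzd7: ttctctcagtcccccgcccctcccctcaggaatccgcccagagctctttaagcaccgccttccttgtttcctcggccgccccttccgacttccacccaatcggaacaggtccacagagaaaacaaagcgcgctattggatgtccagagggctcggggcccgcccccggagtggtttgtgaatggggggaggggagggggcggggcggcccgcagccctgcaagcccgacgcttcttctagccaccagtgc
Tcf7l2: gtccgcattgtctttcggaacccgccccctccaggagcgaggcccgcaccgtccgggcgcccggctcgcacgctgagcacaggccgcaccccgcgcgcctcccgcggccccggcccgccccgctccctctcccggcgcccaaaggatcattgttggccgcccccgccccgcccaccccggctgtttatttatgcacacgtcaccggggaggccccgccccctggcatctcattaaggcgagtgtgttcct
Wnt5b: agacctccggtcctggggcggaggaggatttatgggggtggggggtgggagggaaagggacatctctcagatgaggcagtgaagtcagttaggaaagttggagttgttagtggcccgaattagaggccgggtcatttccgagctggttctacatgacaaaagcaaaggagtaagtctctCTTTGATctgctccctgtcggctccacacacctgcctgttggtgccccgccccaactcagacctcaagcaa

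The TCF/LEF core was found in 2 of the 38 windows (5.26%), those of Wnt5b (bases -71 to -65 from the start site) and Wnt11 (bases -51 to -45, opposite strand), against 3.73% of all 32851 windows in the table. The NR4A monomer element AAAGGTCA, the sequence that Nurr1 binds as a monomer, was found in 0 of the 38 windows, against 1.51% of all windows. Neither motif was found in the 18 windows of the 10 tested genes with a window. Both strands were searched. On its opposite strand the first motif ends in the letters AAAG that begin the second, so the motifs can overlap, but no window of these genes held both. These counts describe the letters in these windows and nothing else.

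Nr4a2 is the gene for Nurr1, and no Nurr1-labelled array read it above its match. At 92248_at the signals were 320.1 and 206.4 against 485.0 and 254.2. At 92249_g_at they were 188.0 and 113.5 against 371.9 and 213.2. Each Nurr1-labelled clone was below its match at both probe sets. The fitted log2 differences were -0.45 ± 0.30 and -0.95 ± 0.34 (SE, n = 2 clones per group; limma adjusted p = 0.871 and 0.453). Whether the probes can read the transgene is unknown here. The clones are therefore called Nurr1-labelled, and every direction that follows holds for the labels.

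Some other features of the arrays differed between the groups or between the pairs. Median signals ran from 125.6 to 160.1. The ratio of 3' to 5' signal, a sign of RNA integrity, was higher in the Nurr1-labelled clone of each pair for actin (1.68 against 1.51, and 2.41 against 2.0) and for Gapdh (0.935 against 0.859, and 1.24 against 0.973). For both genes it was also higher on both arrays of the second pair than on those of the first, so the groups overlapped. The summed signal of 7 progenitor markers was 4509 and 4492 against 5462 and 5474. Nes, the progenitor marker nestin, had signals from 3029.8 to 3719.8 on the 4 arrays. Fabp7 of radial glia had 564.5 and 157.3 in the Nurr1-labelled clones against 1292.5 and 1539.0 in the controls. Hes1 and Pax6 were also lower in both pairs, Pax6 with signals under background on 3 arrays. Vim (84.6 and 61.5 against 29.8 and 57.7) and Prom1 were higher in both, at low signals, and Msi1 differed in direction between the pairs. The summed signal of 8 fibroblast and mesenchymal markers was 8394 and 5497 against 2435 and 3732. Most of it came from Col3a1 and Col1a2. Col3a1 and Pdgfrb were higher in both pairs, Col3a1 with 4010.0 against 1750.5 in the second and Pdgfrb under background on 2 arrays. Twist1 (53.9 and 133.5 against 189.8 and 202.2) and Lum were lower in both pairs, Lum under background on 3 arrays. Col1a2 (1007.2 against 1053.9), Col1a1, Dcn and Thy1 were lower in the second pair only, Dcn and Thy1 each under background on 3 arrays. The sum of 7 neuron markers was 6680 and 5391 against 3195 and 3214, most of it from Tubb3. Nefl and Nefm were also higher in both pairs. Map2 (45.8 and 4.2 against 198.1 and 120.3) and Dcx were lower in both, Map2 under background on 2 arrays and Dcx on 3. Syp and Snap25 lay under background on all 4 arrays. Of 5 endothelial markers, Cdh5 and Tek lay under background on all 4 arrays, and Eng had signals from 3172.3 to 4420.5. Pecam1 was lower in both pairs (80.2 and 75.2 against 158.3 and 121.2), and Kdr was higher in both. Of 6 microglia and macrophage markers, Aif1 and Ptprc lay under background on all 4 arrays, and Csf1r, C1qb and Cd68 above it on all 4. C1qa had 33.5 and 46.8 against 108.6 and 105.3. The sum of 3 astrocyte markers was 1664 and 677 against 863 and 669, most of it from S100b. That of 3 oligodendrocyte markers was 216 and 250 against 334 and 275. The part of these features in the Wnt pathway results was not tested.

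Of the 56 Wnt pathway probe sets, 20 (35.7%), for 17 genes, passed a filter on low signals, against 51.8% of all gene probe sets. The filter asked for a signal above 145.1, the median of all values, on at least 2 arrays. It kept 1 of 14 ligand genes, 6 of 10 receptors, 0 of 7 secreted antagonists, 8 of 10 cytoplasmic transducers and both nuclear factors (Lef1 and Tcf7l2). The 20 probe sets had signals above the highest control for a transcript that was not spiked in on every array. These controls serve as the measure of background, and their highest values were 62.7, 39.1, 49.8 and 59.1 on the arrays of clone 42, clone 48, puroB and puroD. In RNA from whole cultures, fewer cells with a transcript and less of it per cell cannot be told apart.

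**Figure D1:**
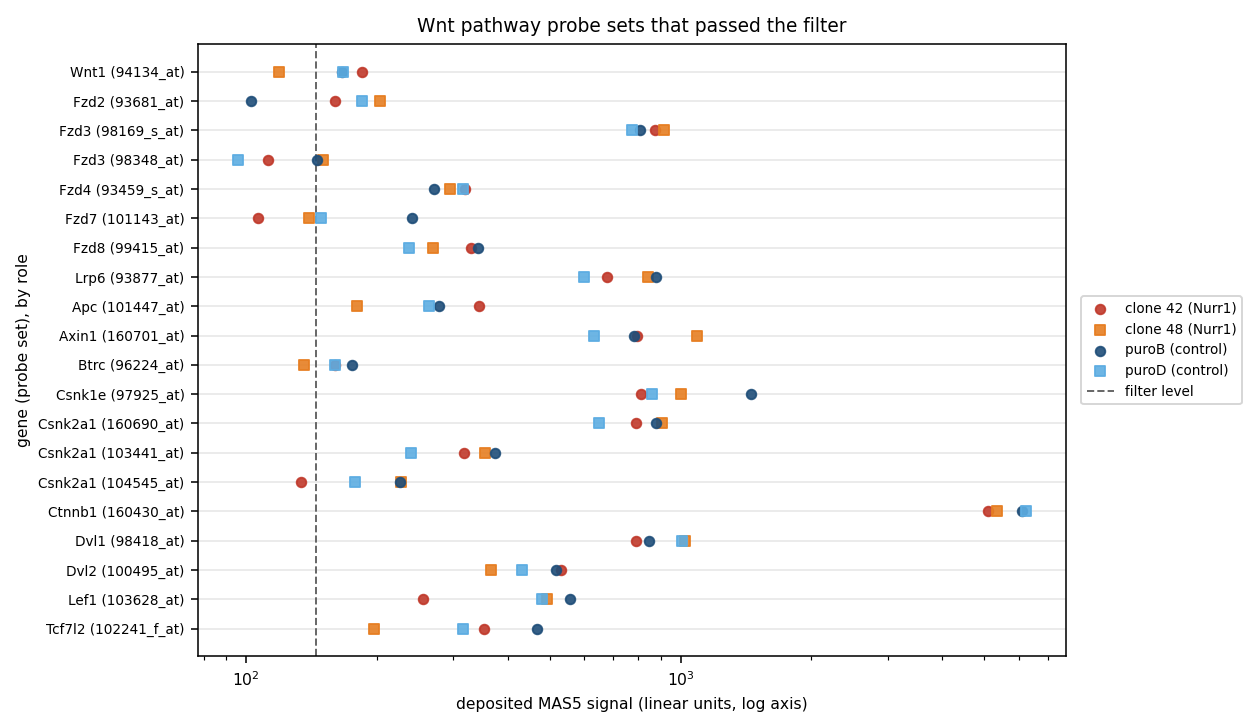
Deposited signal (log axis) of the 20 Wnt pathway probe sets that passed the filter, by role, with 1 point for each of the 4 arrays and a dashed line at the filter level of 145.1. For most probe sets the points of Nurr1-labelled and control clones lie among each other, and Ctnnb1, Fzd3 (98169_s_at), Axin1 and Fzd7 are those without overlap.

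None of the 20 tested probe sets passed when the Nurr1-labelled clones were set against the controls. The comparison asks how clones labelled as overexpressing Nurr1 differ from the vector clones paired with them, and it was fitted with limma over 6419 probe sets, with the pair as a block. Of the Wnt pathway probe sets, 0 of 20 had a Benjamini-Hochberg adjusted p under 0.05, where 0.109% of all tested probe sets did. At an unadjusted p under 0.05 the count was also 0 of 20, where 7.38% of all tested probe sets passed. The smallest adjusted p was 0.808, for Tcf7l2. The median log2 difference of the 20 was -0.07, against -0.04 over all tested probe sets. With each array scaled to a common median the first became 0.07, a setting that moved the median of all tested probe sets by 0.17. An adjusted p above the threshold does not show that levels were equal. The 95% interval that stayed closest to 0, that of Dvl1, still ran from -0.67 to 0.60.

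Wnt1 was the ligand gene that passed the filter. It encodes the ligand of the midbrain and hindbrain boundary. Its signals were 184.8 and 118.9 against 166.6 and 167.5. The controls were nearly equal, and the Nurr1-labelled clones lay on either side of them. The fitted log2 difference was -0.17 ± 0.39 (SE, n = 2 clones per group), with a 95% interval from -1.02 to 0.67 (limma adjusted p = 0.995). It was 0.0076 with quantile normalization.

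The other 13 ligand genes did not pass the filter, and 8 of their 15 probe sets lay on all 4 arrays under 40.3, the floor to which low signals were raised before log2 was taken. These 8 were the single probe sets of Wnt4, Wnt5a, Wnt6, Wnt7a, Wnt8a and Wnt11 and 2 of the 3 for Wnt10b. Wnt3, the closest relative of Wnt3a, had signals of 77.1 and 72.3 against 116.2 and 134.9. It was above background on all 4 arrays, and both Nurr1-labelled clones lay below both controls. In the fit without a filter its log2 difference was -0.75 ± 0.23 (SE, n = 2 per group; limma adjusted p = 0.903, unadjusted 0.0916). Wnt10a had 117.9 and 117.7 against 128.9 and 112.4, so its groups overlapped. Wnt10b at 92752_r_at had 32.9 and 46.6 against 80.4 and 63.9, with clone 42 under the floor.

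Wnt3a, a ligand that acts through beta-catenin, showed the opposite order near background. Its signals were 56.1 and 51.9 against 16.7 and 16.5. Both controls lay under the floor. Clone 42 was below the background control of its array (62.7), and clone 48 above that of its own (39.1). The log2 ratios of 0.48 and 0.36 in the pairs are ratios to the floor and move with it. In the fit without a filter the limma adjusted p was 0.903 (unadjusted 0.0134, the one Wnt pathway probe set of 56 with an unadjusted p under 0.05). Both controls entered that fit at the same floor value, so its SE of 0.04 and these p-values also rest on the floor. Wnt5b, another ligand, had 63.2 and 29.8 against 18.6 and 20.3, so clone 42 was the single array above the floor.

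Wnt7b and Wnt2b followed the pairs and not the groups. Wnt7b had signals of 97.5 and 16.8 against 71.1 and 10.5. Wnt2b had 74.3 and 4.9 against 46.3 and 27.4. For both ligands the arrays of clone 42 and puroB were above the floor, and those of clone 48 and puroD were not.

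Receptors made up 7 of the tested probe sets, for 5 Frizzled genes and the co-receptor Lrp6. Fzd7, a Frizzled receptor of stem and progenitor cells, had signals of 106.7 and 139.8 against 241.4 and 148.5. Both Nurr1-labelled clones were below both controls, but clone 48 and puroD were nearly equal. Fzd7 was 2.26-fold lower in the first pair and 1.06-fold lower in the other, while puroB was 1.63-fold above puroD. Its fitted log2 difference was -0.63 ± 0.42 (SE, n = 2 per group), with an interval from -1.52 to 0.26 (limma adjusted p = 0.868). When puroB was left out this shrank to -0.28. The log2 ratio of the second pair was -0.09, and it became 0.13 with scaling to the median and 0.12 with quantile normalization.

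Fzd3, a Frizzled receptor needed for axon growth and for cell polarity in tissues, varied little at 1 probe set and more at the other. At 98169_s_at its signals were 873.4 and 917.3 against 807.9 and 773.2. The groups did not overlap, yet the ratios were 1.08-fold and 1.19-fold, and the fitted log2 difference was 0.18 ± 0.29 (SE, n = 2 per group; limma adjusted p = 0.984). At 98348_at the signals were 112.1 and 150.0 against 145.4 and 95.6, lower in clone 42 and higher in clone 48 than in the match, with a fitted log2 difference of 0.14 ± 0.46. The suffixes s and f in a probe set name mark probes that can also match related sequences, and r marks a set for which some rules of probe choice were dropped, so the probe sets of 1 gene need not read the same transcripts.

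Fzd2, the receptor gene with the largest positive difference, followed puroB. Its signals were 160.6 and 203.7 against 102.7 and 185.3. The array of puroB was the low one, and the other 3 lay within 160.6 to 203.7. The fitted log2 difference was 0.39 ± 0.39 (SE, n = 2 per group), with an interval from -0.44 to 1.22 (limma adjusted p = 0.937). Without puroB it was -0.03.

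Fzd4 and Fzd8, receptors of vessel growth and of the forebrain, differed less than the control clones did. Fzd4 (93459_s_at) had 318.7 and 294.3 against 271.0 and 315.7. Its highest array was 1.18-fold above its lowest, the smallest such range among the 20. Fzd8 had 330.2 and 270.0 against 341.9 and 237.2, so that clone 42 and puroB were the high arrays. Lrp6, the co-receptor, had 678.0 and 843.2 against 878.8 and 598.2, with puroB highest and puroD lowest. Their fitted log2 differences were 0.07, 0.07 and 0.06, with limma adjusted p-values from 0.995 to 0.996.

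Of the 14 receptor probe sets, 7 did not pass the filter, among them those of Fzd1, Fzd6, Fzd9 and Lrp5, and their signals ran from 1.2 to 80.9. Fzd1 had 45.0 and 22.6 against 65.4 and 46.5. Fzd9 had 36.2 and 67.6 against 80.9 and 59.5. Lrp5, the other co-receptor, had 23.1 and 20.2 against 50.4 and 18.5, so puroB was its single array above the floor. The second probe set of Lrp6 had 15.8 and 43.5 against 55.4 and 20.6. Fzd6 and the other probe sets of Fzd4 lay under the floor on all 4 arrays.

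The secreted antagonists bind Wnt ligands (Sfrp1, Sfrp2, Sfrp4 and Frzb) or, as Dkk1 and Dkk2 do, the co-receptors. All 7 of these genes stayed under the filter level, with signals from 5.7 to 98.0. Dkk3, a divergent relative of Dkk1, had 47.1 and 70.3 against 98.0 and 78.4, so both Nurr1-labelled arrays lay below both controls. Sfrp2 had 92.3 and 48.3 against 65.2 and 85.5, with clone 42 highest and clone 48 lowest. Sfrp1 had 29.0 and 9.8 against 40.4 and 64.0, with both Nurr1-labelled arrays at the floor and puroB just above it. Dkk1 had 38.3 and 5.7 against 40.6 and 6.2, again low in the second pair. Dkk2 and Frzb lay under the floor on all 4 arrays, and Sfrp4 ran between 17.1 and 48.4.

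**Figure D2:**
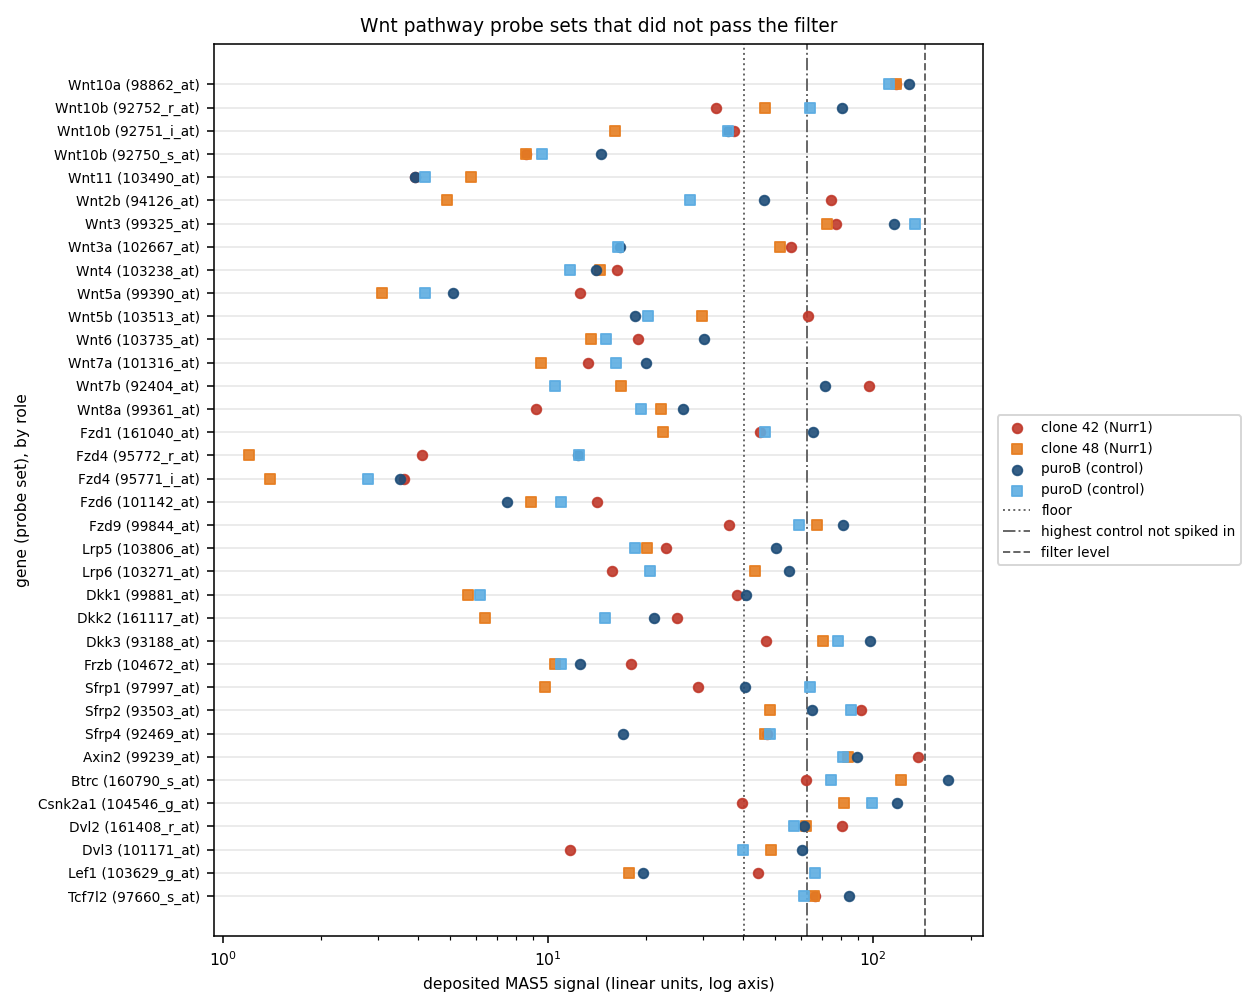
Deposited signal (log axis) of the 36 Wnt pathway probe sets that did not pass the filter, by role, with 1 point for each of the 4 arrays. Lines mark the floor at 40.3, the highest control not spiked in on any array at 62.7 and the filter level at 145.1, and 5 of the 36 probe sets lie above the background control of every array.

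Among the 36 probe sets under the filter, both Nurr1-labelled arrays lay above both controls for 2 (Wnt3a and the second Dvl2 probe set) and below both for 6. Those 6 were Wnt3, Wnt10b (92752_r_at), Fzd1, Dkk3, Sfrp1 and Csnk2a1 (104546_g_at). Over all 5984 probe sets under the filter these shares were 3.84% above and 11.2% below. Of these 8, Wnt3, Dkk3 and Dvl2 were above the floor on all 4 arrays, Wnt10b, Fzd1 and Csnk2a1 were at it on 1, and Wnt3a and Sfrp1 on 2. For Sfrp1 puroB, at 40.4, was just above the floor, so the log2 ratio of the first pair was -0.0036. Of all 36, 28 were at the floor on at least 1 array.

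Of the cytoplasmic transducers, Ctnnb1 and Axin1 had groups that did not overlap. Ctnnb1, which encodes beta-catenin, had signals of 5099.9 and 5345.2 against 6099.1 and 6252.1. It was 1.2-fold and 1.17-fold lower in the pairs, and the clones of each group were close to each other. The fitted log2 difference was -0.24 ± 0.31 (SE, n = 2 per group), with an interval from -0.90 to 0.42 (limma adjusted p = 0.97). Under scaling to the median the ratio of the second pair was -0.01 on the log2 scale, and the groups overlapped.

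Axin1, the scaffold of the destruction complex, had signals of 792.7 and 1088.8 against 780.1 and 632.8. Clone 42 and puroB were nearly equal (1.02-fold), and clone 48 was 1.72-fold above puroD. The fitted log2 difference was 0.40 ± 0.31 (SE, n = 2 per group), with an interval from -0.26 to 1.07 (limma adjusted p = 0.896), and without clone 48 it was 0.17. Axin2, a scaffold that is itself a target of the pathway, did not pass the filter. It had 137.6 in clone 42 and from 81.1 to 89.2 on the other 3 arrays, all above background. Its log2 difference in the fit without a filter was 0.34 ± 0.29 (limma adjusted p = 0.93), from pair ratios of 0.63 and 0.05.

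The kinase genes differed in opposite directions in the pairs. Csnk1e, which encodes casein kinase 1 epsilon, had 811.1 and 1000.2 against 1450.4 and 860.6. The puroB array stood above the other 3, and the log2 ratios were -0.84 and 0.22. Its fitted log2 difference was -0.31 ± 0.33 (SE, n = 2 per group), with an interval from -1.02 to 0.40 (limma adjusted p = 0.958). Csnk2a1, the catalytic subunit of casein kinase 2, was read by 3 tested probe sets with the same order within each pair. At 160690_at it had 787.8 and 905.9 against 876.0 and 649.9. At 103441_at it had 318.2 and 354.0 against 373.2 and 239.6, and at 104545_at 133.9 and 227.4 against 225.8 and 178.4. All 3 were lower in clone 42 than in puroB and higher in clone 48 than in puroD, under all 3 scalings. Their fitted log2 differences were 0.16 ± 0.30, 0.17 ± 0.32 and -0.20 ± 0.38 (SE, n = 2 per group; limma adjusted p = 0.992 for each). The untested probe set 104546_g_at was lower in both pairs (-1.56, with clone 42 at the floor, and -0.28).

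Apc, Btrc, Dvl1 and Dvl2 overlapped between the groups. Apc, a scaffold of the destruction complex, had 343.7 and 180.0 against 277.9 and 263.4, so the Nurr1-labelled clones were its highest and lowest arrays. Btrc, which marks beta-catenin for the proteasome, had 160.5 and 135.6 against 175.2 and 159.8. At 160790_s_at, which failed the filter, it had 62.5 and 121.8 against 170.7 and 74.5. Dvl1 had 790.9 and 1025.7 against 845.0 and 1009.2, close together within each pair. Dvl2 had 530.0 and 366.2 against 515.8 and 430.7. Dvl3 stayed under the filter, with signals from 11.7 in clone 42 to 60.6 in puroB. The fitted log2 differences of Apc, Btrc, Dvl1 and Dvl2 were -0.12, -0.18, -0.04 and -0.10, with limma adjusted p-values from 0.995 to 0.999. The Btrc log2 ratio of clone 48 over puroD, -0.24, was -0.02 with scaling to the median and -0.03 with quantile normalization. The differences of Apc, Dvl1 and Dvl2 turned positive with scaling to the median. Dvl2 at 161408_r_at, under the filter, had 80.7 and 62.3 against 61.5 and 57.3.

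Both nuclear factors that the rule took in, Lef1 and Tcf7l2, had negative fitted differences. Tcf7l2, which brings beta-catenin to target genes, had signals of 353.2 and 197.4 against 468.5 and 315.5 (102241_f_at). Each Nurr1-labelled clone was below its match, 1.33-fold and 1.6-fold, but clone 42 was above puroD, so the groups overlapped. The fitted log2 difference was -0.54 ± 0.30 (SE, n = 2 per group), with an interval from -1.18 to 0.10 (limma adjusted p = 0.808, unadjusted 0.0912). Without clone 48 it was -0.12, and without clone 42 -0.96. The other probe set, 97660_s_at, had 66.2 and 66.1 against 84.5 and 61.5, with a log2 difference of -0.12 in the fit without a filter.

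Lef1 was low in clone 42 alone. Its signals were 256.0 and 493.5 against 555.4 and 479.2 (103628_at). It was 2.17-fold lower in the first pair and 1.03-fold higher in the other. The fitted log2 difference was -0.54 ± 0.32 (SE, n = 2 per group), with an interval from -1.23 to 0.16 (limma adjusted p = 0.841). Without clone 42 it was -0.06, and without clone 48 -1.01 (limma adjusted p = 0.295). The probe set 103629_g_at, under the filter, had 44.3 and 17.8 against 19.7 and 66.6.

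**Figure D3:**
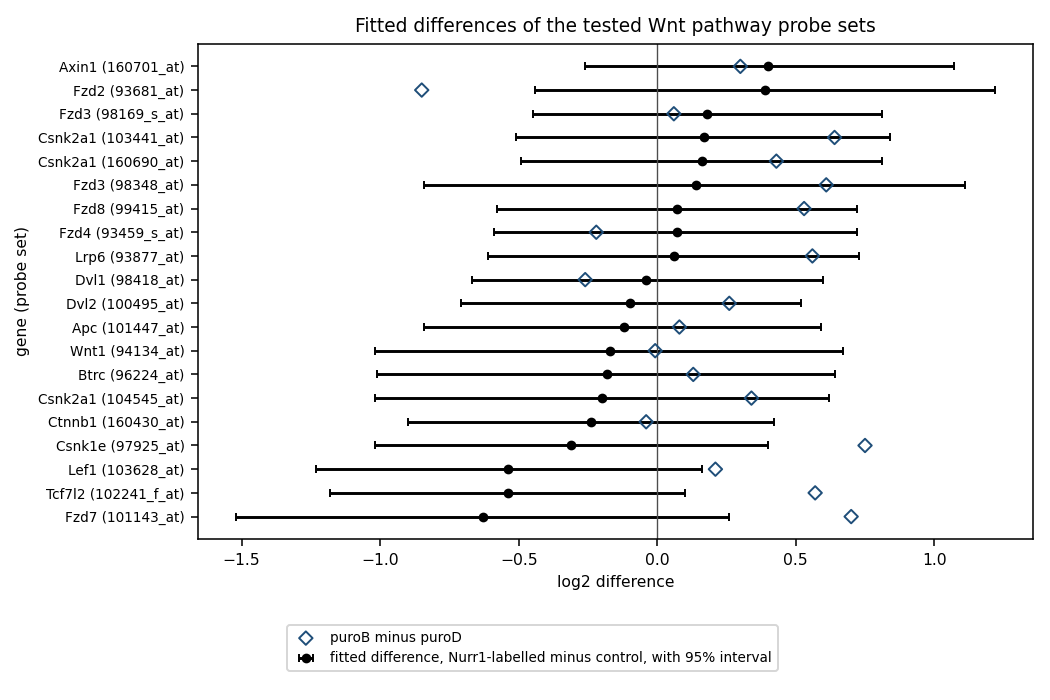
Fitted log2 difference (Nurr1-labelled minus control) of the 20 tested Wnt pathway probe sets with its 95% interval, and the log2 difference between the control clones as open diamonds. All 20 intervals include 0, and for Fzd7, Tcf7l2, Csnk1e and Fzd2, among others, the controls differed from each other by more than the groups did.

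Within single pairs of arrays few of these genes reached 2-fold. In clone 42 against puroB, 2 of the 20 probe sets (10.0%), Fzd7 and Lef1, were at least 2-fold lower, where 4.78% of all tested probe sets were, and 0 were 2-fold higher, where 3.57% were. In clone 48 against puroD, 0 of 20 were 2-fold higher or lower, where 1.67% and 3.72% of all tested probe sets were. Between the controls, 0 of 20 differed by 2-fold or more either way, against 6.06% of all tested probe sets. Between clone 42 and clone 48 the count was also 0, against 10.7%. The highest array was 1.56-fold above the lowest in the median of the 20, and 1.6-fold in the median of all tested probe sets. The range was largest for Tcf7l2, at 2.37-fold. These comparisons rest on 1 array each and carry no test.

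The pairs differed from each other in direction for 13 of the 20 probe sets. Of the 20, 9 were lower in clone 42 than in puroB and higher in clone 48 than in puroD, where 25.4% of all tested probe sets were, and 4 had the reverse order, against 23.3%. The 9 were Lef1, Csnk1e, the 3 of Csnk2a1, Lrp6, Fzd8, Dvl1 and Fzd3 (98348_at). Of the others, 3 were higher in both pairs (Axin1, Fzd2 and Fzd3 at 98169_s_at) and 4 lower in both (Fzd7, Tcf7l2, Ctnnb1 and Btrc), where 21.7% and 29.7% of all tested probe sets were. Scaled to the median, 6 of 19 were higher in both pairs, 3 were lower in both and 10 differed in direction. With quantile normalization the counts were 4, 3 and 12. Fzd3 at 98348_at did not pass the filter in these settings. Of the 9, Fzd8 and Dvl1 also did not keep their order in either setting. The log2 ratio of Fzd8 in clone 42 over puroB became 0.07 and 0.06. Dvl1 became higher in both pairs with scaling to the median and lower in both with quantile normalization.

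**Figure D4:**
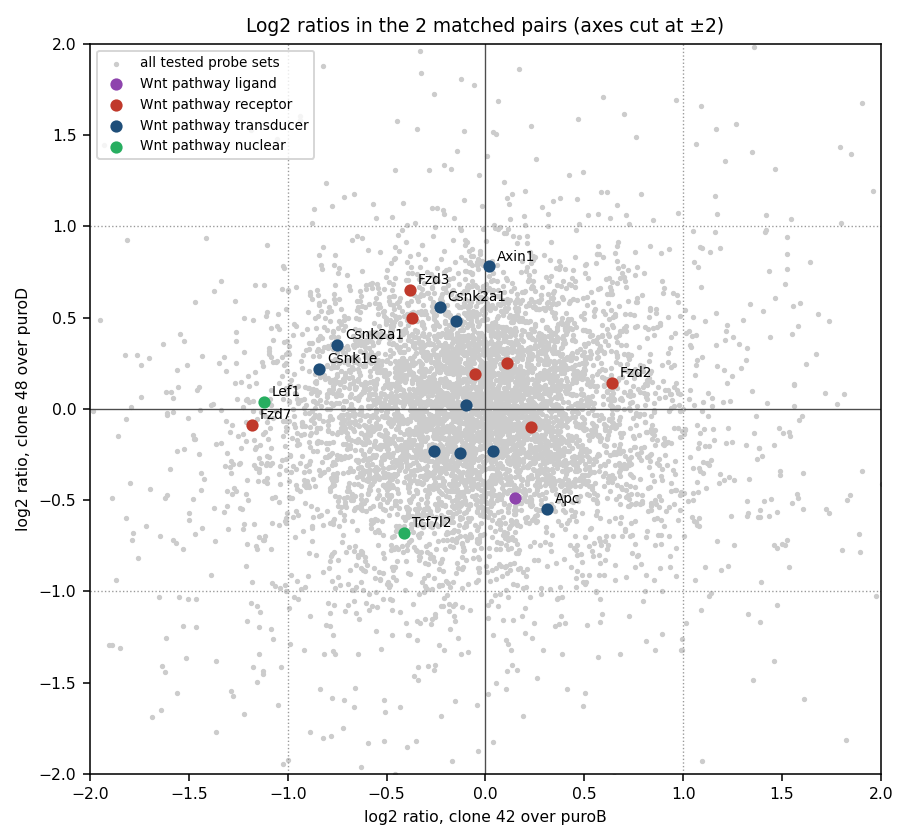
Log2 ratio in clone 42 over puroB (horizontal) and in clone 48 over puroD (vertical) for the 20 tested Wnt pathway probe sets, coloured by role, over all tested probe sets in grey, with dotted lines at 2-fold and both axes ending at 2. Fzd7 and Lef1 lie beyond 2-fold on the horizontal axis, Tcf7l2 is negative on both axes, and 9 of the 20 points lie to the upper left of the centre.

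Both Nurr1-labelled arrays lay above both controls for 2 of the 20 (Axin1 and Fzd3 at 98169_s_at), where 12.8% of all tested probe sets did, and below both for 2 (Ctnnb1 and Fzd7), where 17.9% did. Each share was 10.0% of the 20. With scaling to the median or quantile normalization clone 48 was above puroD for Fzd7, so its order was not kept. For Ctnnb1, scaling to the median put clone 48 above puroB, so its groups overlapped in that setting.

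The control clones themselves differed for these genes, in size about as for all tested probe sets. The median absolute log2 ratio of puroB over puroD was 0.32, against 0.31 over all tested probe sets. The probe sets were higher in puroB than in puroD for 15 of the 20, where 56.1% of all tested probe sets were, and the median log2 ratio was 0.28 against 0.07. With scaling to the median it was 0.13 against -0.07, and with quantile normalization 0.19 against 0.02. The count higher in puroB was 11 of 19 with scaling to the median and 13 of 19 with quantile normalization. The array of puroB was the highest of 4 for 8 of the 20 and that of puroD for 1, where they were for 29.2% and 21.7% of all tested probe sets. The matched pairs use these same arrays, so their ratios are not independent of this. In the pairs the medians were -0.14 in clone 42 over puroB and 0.09 in clone 48 over puroD, against -0.06 and -0.03 over all tested probe sets. With scaling to the median they were -0.0043 and 0.26, against 0.06 and 0.18. With quantile normalization they were -0.01 and 0.12, against -0.0065 and 0.0058.

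Other genes of the pathway were read from a list of further components and commonly described targets. This list was also drawn up with earlier results of these data known. Of its 82 genes on the array, 54 had a tested probe set, and the brightest one of each gene was used. In limma 0 of 54 passed at an adjusted p under 0.05, and 8 (14.8%) had an unadjusted p under 0.05, against the 7.38% given above. The unadjusted count depended on the scaling. It was 4 of 54 with scaling to the median, where 532 of all 6401 tested probe sets passed. With quantile normalization it was 6 of 54, where 375 of 6402 passed. Of the 54, 10 (18.5%) were higher and 17 (31.5%) lower in both pairs, near the 21.7% and 29.7% of all tested probe sets. Their median fitted log2 difference was -0.08, and it was 0.09 with scaling to the median.

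The targets Ccn4, En1 and Jun had the largest positive differences shared by both pairs in this list. Ccn4, a secreted matricellular protein, had 2451.8 and 923.2 against 1017.7 and 313.0. Each Nurr1-labelled clone was above its match, 2.41-fold and 2.95-fold. The puroB signal was above that of clone 48, and the controls differed 3.25-fold. En1, a homeobox factor of the midbrain and hindbrain, had 1295.9 and 1068.4 against 508.0 and 403.5, without overlap. Its ratios were alike in the pairs (2.55-fold and 2.65-fold), and the clones within each group were close to each other. Jun, an immediate early transcription factor, had 3081.1 and 2301.4 against 2042.4 and 704.1, where puroD was the low array.

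The limma adjusted p was 0.0853 for En1 and for Ccn4 and 0.259 for Jun, with log2 differences of 1.38 ± 0.29, 1.41 ± 0.30 and 1.15 ± 0.34 (SE, n = 2 per group). En1 and Ccn4 passed with scaling to the median (limma adjusted p = 0.0113 and 0.0117). En1, Ccn4 and Jun passed where all 4 arrays had to exceed the filter level (0.00993, 0.00638 and 0.0439). Over all alternatives the adjusted p of En1 ran up to 0.903, and those of Ccn4 and Jun up to 1.0. Leaving out 1 clone gave differences from 0.56 (without puroD) to 2.27 (without puroB) for Ccn4 and from 0.38 (without puroD) to 1.92 (without puroB) for Jun, and for En1 from 1.21 to 1.54.

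On the lower side, the genes with the largest difference shared by both pairs were Gja1, Cd44 and Ctbp2. Gja1, a gap junction protein, had 2703.4 and 2646.5 against 4286.7 and 4534.4, with both groups tight and apart. Its fitted log2 difference was -0.72 ± 0.31 (SE, n = 2 per group; limma adjusted p = 0.593), and a second probe set gave -0.57. Cd44, a hyaluronan receptor, had 397.2 and 178.4 against 606.7 and 313.0, with overlap. Ctbp2, a corepressor that can act with Tcf factors, had 670.7 and 609.0 against 1067.2 and 859.8, without overlap, and its other tested probe set gave -0.28. The limma adjusted p was 0.568 for Cd44 and 0.738 for Ctbp2.

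Ccnd1, Tcf7l1 and Csnk1d were the remaining genes of this list with an unadjusted p under 0.05, all on the lower side. Ccnd1, the target cyclin D1, which drives entry into S phase, had 2281.2 and 1698.6 against 3166.1 and 3643.3, without overlap. Its fitted log2 difference was -0.79, with ratios of -0.47 and -1.10 in the pairs. Tcf7l1, a Tcf factor that mostly represses, had 107.5 and 252.0 against 379.1 and 262.3, where clone 42 was the low array. Csnk1d, a casein kinase 1 gene, had 1959.5 and 1809.0 against 4022.3 and 2404.3 at its brightest probe set, 97263_s_at. Its probe sets disagreed. At 97264_r_at the ratios were -1.52 and -1.37 and the fitted log2 difference -1.44 ± 0.37 (SE, n = 2 per group; limma adjusted p = 0.159), while at 97262_at and 162001_f_at the pairs had opposite directions. The second probe sets of Ccnd1 and Tcf7l1 gave -0.81 and -1.10.

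**Figure D5:**
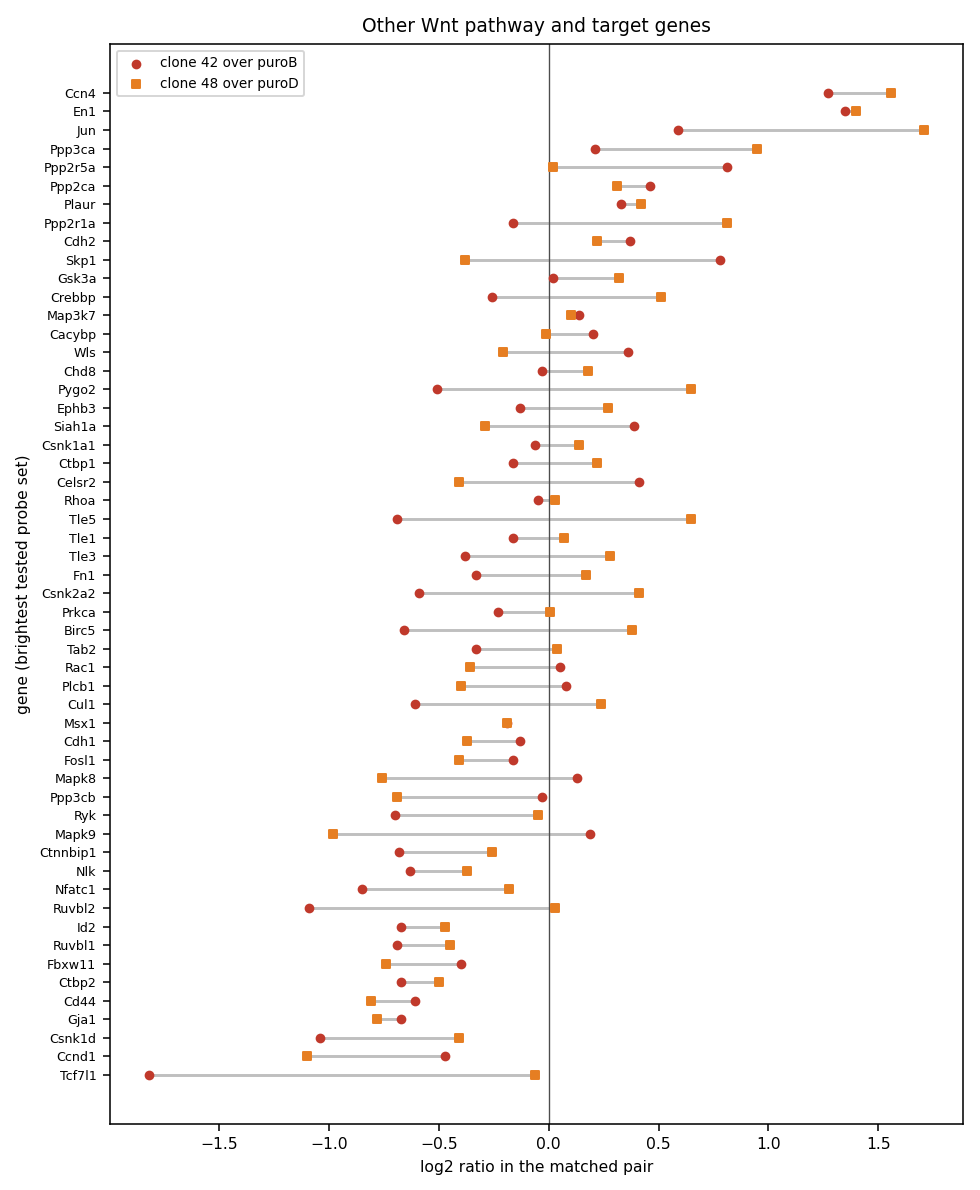
Log2 ratio in each matched pair (circles, clone 42 over puroB; squares, clone 48 over puroD) for the 54 other Wnt pathway and target genes, ordered by fitted difference, with a line joining the pairs. Ccn4, En1 and Jun lie to the right of 0 in both pairs, and Gja1, Cd44 and Ctbp2 to the left.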

How the data were processed

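The deposited intensity values are linear MAS5 signals for 12469 probe sets on each array, with MAS5 named per the submitters' processing notes. The sources used here give neither its version nor its scaling target, and no detection calls were used. The deposited signals had trimmed means (2% cut at each end) between 500.4 and 500.5, and printed signals are as deposited. For the fits each array was rescaled to a trimmed mean of 500, lower signals were raised to a floor of 40.3, the 30th percentile over the arrays, and log2 was taken. Probe sets above 145.1 on at least 2 arrays, without 66 array controls, were tested, which left 6419. Symbols came from the platform annotation; of 10798 checked through Entrez identifiers, 0 differed from RefSeq (GRCm38.p6).

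The groups were compared in R 4.3.3 by limma 3.58.1, with the pair as a block in lmFit, a trend in eBayes and Benjamini-Hochberg adjustment over all tested probe sets; the script was tested on simulated data. The fit has 1 residual degree of freedom, to which the prior adds 13.1, so the standard errors rest mostly on the spread of all probe sets. The pairing comes from the labels; across 6419 probe sets, which are not independent, the deviations within a pair had r = 0.19. The members, the gene lists and the rule for named genes were chosen with earlier results of these data known. That rule took every tested member with its 4 signals, the untested members by signals or range, and the other pathway genes that passed or were among the 6 of the largest difference shared by both pairs; other genes and signals given beside these were chosen after their values were seen. Alternatives were no block, other scalings, floors and filters, no trend, and each clone left out.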

Additional observations from a re-analysis of the deposited data

How the results depend on the processing

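No Wnt pathway probe set was called under any alternative tried, and its smallest adjusted p was 0.295 (Lef1 without clone 48). The count of calls over all probe sets moved from 7 to 0 without the matched pair as a block, with quantile normalization, without a floor, with a floor at the 40th percentile (77.4) and without a filter, to 51 with scaling to the median and to 49 where all 4 arrays had to pass the filter; leaving out 1 clone gave 0 to 51 (17 without clone 42, 51 without clone 48, 0 without puroB and 2 without puroD). Counts at an unadjusted p under 0.05 for the settings with 0 calls ran from 203 to 560. The other Wnt pathway genes gave 2 calls with scaling to the median and 3 with the stricter filter. The median log2 ratio of clone 48 over puroD became 0.26 with scaling to the median. Over all tested probe sets this median moved from -0.03 to 0.18 in the same setting. The median of puroB over puroD became 0.09 without a filter, where 56 probe sets entered. The cause of these changes was not tested, except that the stricter filter left fewer probe sets (5498) and the setting without a filter more.

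Of 304 single values under an alternative, 23 changed sign, none of them called. With scaling to the median Apc became 0.05, Dvl1 0.13 and Dvl2 0.07; with quantile normalization Apc became 0.02 and Wnt1 0.0076. Leaving out 1 clone gave -0.59 to 0.35 for Apc, -0.69 to 0.07 for Csnk1e, -0.49 to 0.15 for Wnt1, -0.36 to 0.17 for Dvl2, -0.22 to 0.15 for Dvl1, -0.22 to 0.34 for Lrp6, -0.04 to 0.18 for Fzd4, -0.20 to 0.33 for Fzd8, -0.17 to 0.44 for Fzd3 (98348_at) and -0.03 to 0.82 for Fzd2. For Csnk2a1 it gave -0.58 to 0.18 (104545_at), -0.05 to 0.38 (160690_at) and -0.15 to 0.49 (103441_at). The fits without 1 clone have no block and assume that the lone clone varies like the others. With 2 clones per group and 1 array per clone, the number of arrays limits the precision, and signals near the floor have no order.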
